A study of Komagataella phaffii with 26 samples.

Results

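The subject here is the early answer of *Komagataella phaffii* cells growing on glycerol to a shift to pH 8.0, as read in mRNA 15 min after the shift. It rests on 6 of the 26 RNA-seq libraries of the series: the 4 libraries taken at 15 min (codes a9, a10, a2 and a6, which the sample records number as replicates 1 to 4) and the 2 libraries of time zero of the same course (a1 and a5). They were picked by their labelled carbon source, pH and time, and no measured value took part in the choice. The other libraries cover later times of this course, a glycerol course at pH 8.2 and a glucose course at pH 8.0.

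All 6 libraries came from the wild-type strain X-33, a methanol-using yeast much used to secrete recombinant proteins, grown at 28 °C in rich YP medium with 20 g/L of glycerol. Exponential cultures were split and spun down. For time zero the cells were taken up in fresh medium with 50 mM of the buffer TAPS at pH 5.5 and sampled at once, and for 15 min they were taken up in the same medium at pH 8.0. No culture held at pH 5.5 was sampled later, so that the effect of pH cannot be told apart from those of elapsed time and of the fresh medium. The study describes the 4 samples of 15 min and the 2 of time zero as biological replicas. The codes a1 to a8 run through 0, 15, 30 and 60 min in 2 rounds while a9 and a10 stand outside them, and neither the labels nor the methods say whether these 2 were grown on another day than a2 and a6. For this reason the pairs are kept apart in what follows.

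Fungal cells drive much of their nutrient uptake with the proton gradient over the plasma membrane, and an alkaline medium weakens that gradient and makes iron and copper less soluble. In *S. cerevisiae* the response to such a medium runs through the repressor Rim101, the calcium-activated phosphatase calcineurin and kinase pathways, and it includes sodium-coupled phosphate uptake, sodium export, metal acquisition and defence against oxidants. Most gene names below are those of *S. cerevisiae* matches, so that the roles given with them are known from that species unless stated otherwise.

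The 6 libraries rest on 16.6 to 19.5 M reads each (M, 1e6), of which 92.5 to 93.9% fell in the 5040 gene models. Values are RPKM, the reads per kilobase of gene per 1e6 mapped reads, so that levels of different genes can be set side by side. A fold change is a difference of means of log2(RPKM + 1), which understates the change of weakly expressed genes, and ± is its standard error from limma. A gene is said to have risen or fallen where the Benjamini-Hochberg adjusted p over the 5034 genes tested was below 0.05, the unadjusted p below 0.01 and the change at least 1 on the log2 scale. By this rule 158 genes rose (3.14% of those tested) and 123 fell (2.44%), 281 in all (5.58%). In each of the 281 all 4 libraries of 15 min lay beyond both of time zero, which was also the case for 65.1% of all genes tested. Genes that rose had a median of 37.4 RPKM at time zero and 143 at 15 min, and those that fell went from 97.3 to 28.2, against a median of 51.6 at time zero over all genes. Together the genes that rose took 1.7 and 1.78% of the reads in a1 and a5, 6.87 and 6.92% in a9 and a10, and 5.86 and 6.16% in a2 and a6.

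**Figure D1:**
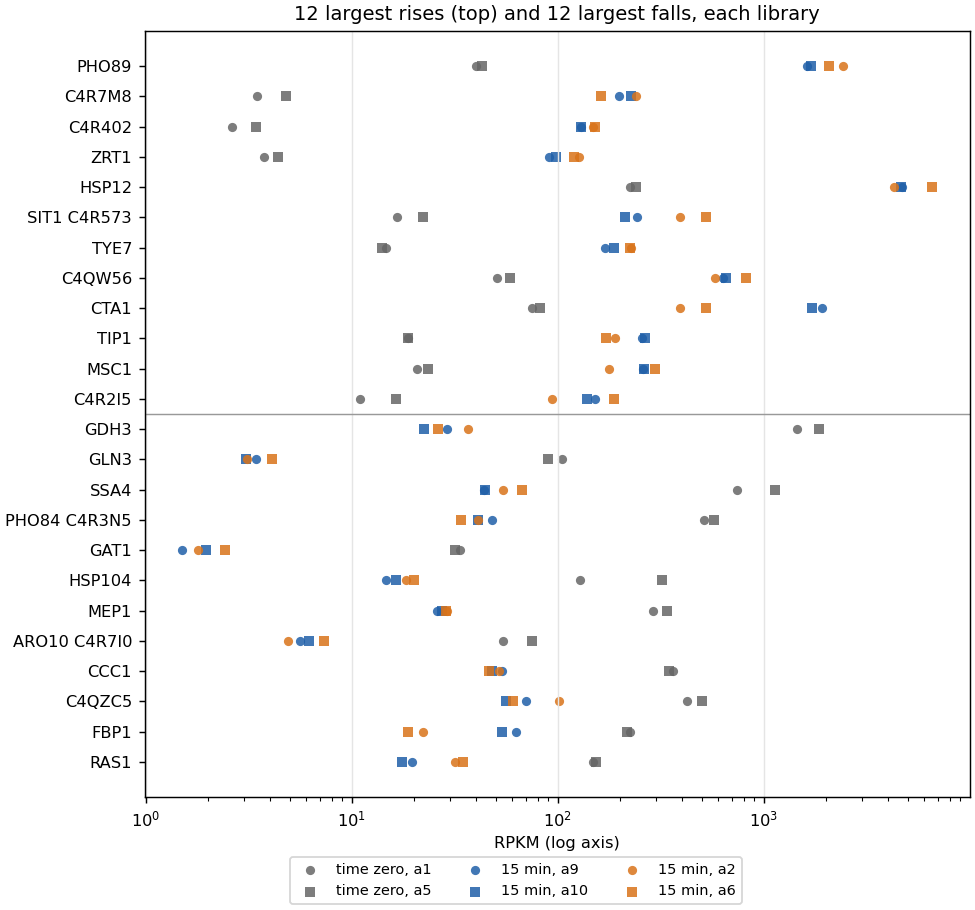
RPKM on a log axis of the 12 genes with the largest rises (above the line) and the 12 with the largest falls (below it), with 1 point for each library of time zero (grey), of the pair a9, a10 (blue) and of the pair a2, a6 (orange). In all 24 genes the 4 libraries of 15 min lie on one side of both libraries of time zero, and in *CTA1* and *FBP1* the blue and orange pairs stand clearly apart from each other.

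The largest rise on the log2(RPKM + 1) scale belonged to *PHO89* (C4R021, chromosome 2), which encodes a plasma membrane transporter that takes up phosphate with sodium instead of protons. Its RPKM was 39.9 and 42.9 in a1 and a5, 1624 and 1691 in a9 and a10, and 2421 and 2082 in a2 and a6. All 4 libraries of 15 min were thus far above time zero, by 47.2-fold in the mean (5.51 ± 0.12 on the log2 scale, adjusted p = 6.8e-17). The opposite held for *PHO84* (C4R3N5), the high-affinity transporter that takes up phosphate with protons. It stood at 510 and 575 RPKM at time zero, at 47.9 and 41.2 in a9 and a10, and at 40.9 and 34 in a2 and a6, a fall by 3.70 ± 0.11 on the log2 scale. A second gene with that name, C4R7K5, ranged from 68.9 to 106 RPKM at 15 min against 72.6 and 83.8 at time zero, and the groups overlapped. Of the 11 described genes of phosphate uptake and storage 5 rose and 1 fell, with a median change of 0.93 against -0.05 over all genes. The vacuolar polyphosphate genes were among them: *VTC2* rose from 71.6 and 79.5 RPKM to between 173 and 219, and *VTC4* from 132 and 139 to between 261 and 293. C4R7F2, described as a vacuolar transporter chaperone, rose from 161 and 144 to between 461 and 539. Of the phosphate regulators, C4QZW1, which the paper names as the putative transcription factor Pho4, rose by 2.35 on the log2 scale. The regulator genes *PHO81* and *PHO80* changed by 0.74 ± 0.13 and 0.71 ± 0.07, below the size required for a call.

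For these lists and those that follow, descriptions exist only for genes that the authors called changed somewhere in these same samples, so the share of members that rose or fell is raised by that choice and is not independent evidence. The plot of the fold changes of each list shows the spread behind the counts.

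**Figure D2:**
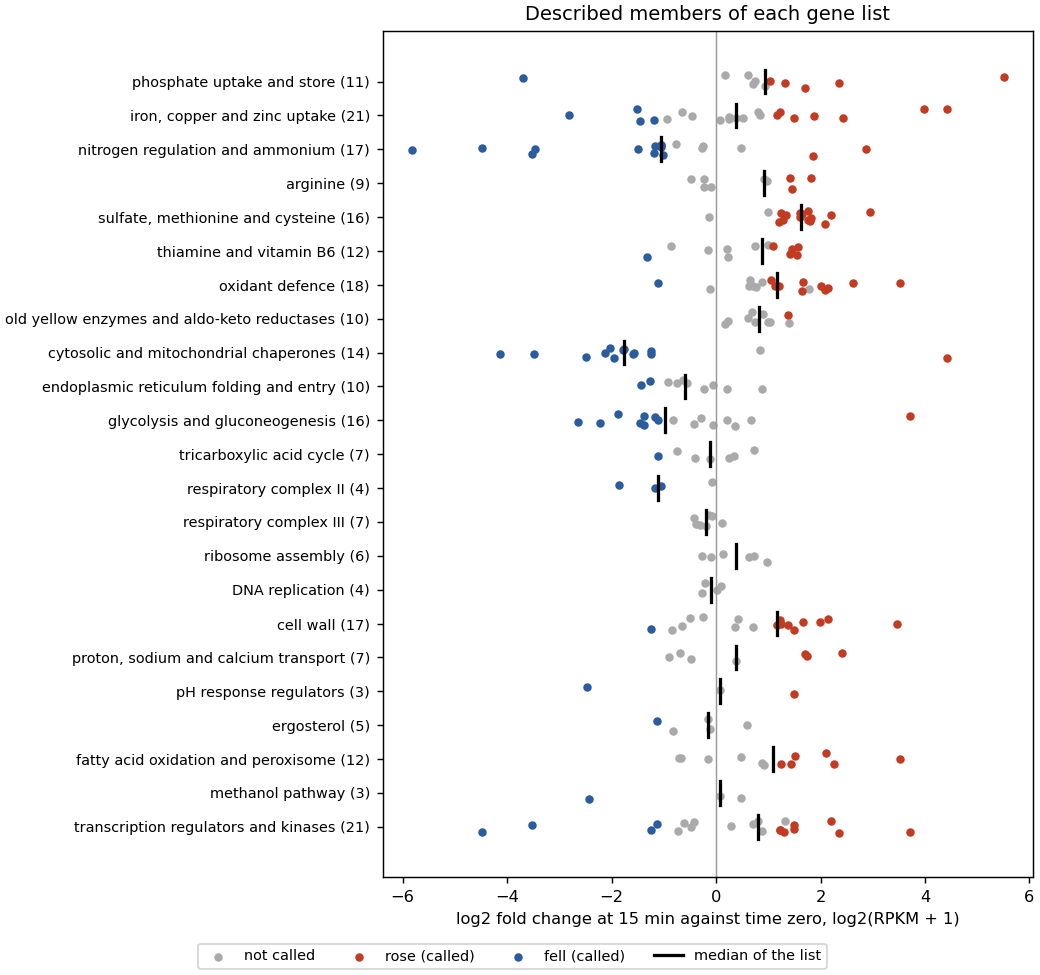
Log2 fold change at 15 min against time zero on log2(RPKM + 1) for each described member of 23 gene lists (number of members in brackets), with genes that rose in red, genes that fell in blue, genes not called in grey, and a black bar at the median of the list. The sulfate list has 14 of its 16 points in red, the chaperone list 12 of its 14 in blue, and the lists of respiratory complex III, ribosome assembly and DNA replication have no coloured point.

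Metal uptake moved both ways, with 7 of 21 described genes up and 4 down (median 0.39). *ZRT1*, the high-affinity zinc importer, stood at 3.73 and 4.37 RPKM at time zero, at 90.2 and 97.6 in a9 and a10, and at 127 and 120 in a2 and a6. *SIT1* (C4R573), which imports iron bound to the siderophore ferrioxamine B, stood at 16.6 and 22.2, then at 243 and 211 in a9 and a10 and at 390 and 525 in a2 and a6. Its change was 3.99 ± 0.32 (adjusted p = 6.8e-09). A ferric reductase gene, *FRE2* (C4QZH4), rose from 4.52 and 4.26 to between 26 and 30.6 RPKM, and the high-affinity copper importer *CTR1* from 260 and 350 to between 638 and 733. The oxidase and the permease that take up reduced iron fell. *FET3*, the multicopper oxidase, stood at 363 and 377 RPKM at time zero and between 117 and 143 at 15 min (-1.51 ± 0.11), and *FTR1*, the permease that works with it, at 190 and 199 against 77.4 to 94.4 (-1.18 ± 0.21). *CCC1*, which stores iron and manganese in the vacuole, fell by 2.81 ± 0.36 on the log2 scale, from 363 and 348 RPKM to 53.6 and 48 in a9 and a10 and 51.6 and 46.5 in a2 and a6. *CTH1*, a zinc finger protein whose *S. cerevisiae* match binds mRNAs of iron-using proteins, rose from 28.9 and 28.5 to between 70.3 and 94.2.

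Nitrogen genes gave the largest fall at 15 min. *GDH3*, an NADP-dependent glutamate dehydrogenase that fixes ammonium into glutamate, stood at 1451 and 1863 RPKM at time zero, at 28.9 and 22.5 in a9 and a10, and at 36.8 and 26.3 in a2 and a6. The gap amounts to 57.9-fold in the means, and the libraries of 15 min lie within a narrow band of each other. Of 17 described genes of nitrogen regulation and ammonium uptake 11 fell and 2 rose (median -1.06). Both GATA factors that activate genes for poor nitrogen sources fell: *GLN3* went from 105 and 89.6 RPKM to 3.41 and 3.05 in a9 and a10 and 3.11 and 4.1 in a2 and a6 (-4.48 ± 0.32, adjusted p = 1.2e-09), and *GAT1* from 33.4 and 31.8 to between 1.5 and 2.41. The ammonium permease *MEP1* stood at 290 and 340 RPKM before and between 26 and 28.9 after the shift. The allantoin genes *DAL1*, *DAL2* and *DAL4* and the general amino acid permease *GAP1* fell by 1.06 to 1.18 on the log2 scale. The 2 that rose were *DUR3*, a urea and polyamine importer (12.1 and 14.6 RPKM, then 131 and 141 in a9 and a10 and 62.6 and 102 in a2 and a6), and *ATO1*, a putative ammonia exporter (14 and 14.6, then 65.1, 58.5, 46.7 and 48.1).

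In amino acid synthesis the sulfur genes with a description rose in most cases. Of 16 described genes of sulfate assimilation, methionine and cysteine 14 rose and none fell, with a median of 1.63. *MET17*, which joins sulfide to O-acetylhomoserine, stood at 123 and 205 RPKM at time zero, at 1465 and 1660 in a9 and a10, and at 832 and 1151 in a2 and a6 (2.95 ± 0.33, adjusted p = 7.2e-07). Every library of 15 min was at least 4 times the higher library of time zero. *MET3*, the ATP sulfurylase that starts the path, rose from 145 and 175 to 624 and 713 in a9 and a10 and 334 and 431 in a2 and a6. *MET10*, a subunit of sulfite reductase, rose from 25.9 and 38.4 to 145 and 163 in a9 and a10 and 67.8 and 102 in a2 and a6. Both activators of the pathway rose as well, *MET32* from 9.83 and 12.9 to between 47 and 65.4 and *MET4* from 35.3 and 28.8 to between 91.1 and 127. The members without a call were *CYS3*, a cystathionine gamma-lyase at 0.99 ± 0.07, just under the size required, and the second *MUP1* gene (C4R3B3, -0.13 ± 0.16). In 14 of the 16 genes both a2 and a6 lay below both a9 and a10, an order seen in 27.1% of all genes, though in no gene of the list did the difference between pairs pass the test. Of 9 arginine genes 3 rose, among them *CPA1*, which acts early in arginine synthesis (1.81 ± 0.16), and *ARG1*, the argininosuccinate synthetase (1.46 ± 0.15). None of the 9 fell, so the share called was no larger than among all described genes. The arginase and ornithine transaminase genes of arginine breakdown changed by -0.24 to -0.10 without a call. Of 12 genes of thiamine and vitamin B6 5 rose, led by the thiazole synthase *THI4* (14.5 and 16.7, then between 43.9 and 50.9 RPKM) and its neighbour *THI72*, a thiamine transporter (59.8 and 66.1, then between 167 and 218).

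Heat-shock chaperones formed the most one-sided list among those that fell. Of 14 described cytosolic and mitochondrial members 12 fell and 1 rose, with a median of -1.77. *SSA4*, an Hsp70, stood at 745 and 1137 RPKM at time zero, at 44 and 44.3 in a9 and a10, and at 54.1 and 66.7 in a2 and a6 (-4.13 ± 0.26). A second Hsp70 gene, *SSA3*, stood at 3168 and 3983, then at 515 and 382 in a9 and a10 and at 919 and 868 in a2 and a6. *HSP82*, the Hsp90 gene, went from 2143 and 2787 to between 439 and 655, and its co-chaperones *STI1*, *SBA1*, *CPR6* and both *AHA1* genes fell with it by 1.24 to 1.96. The disaggregase *HSP104* fell by 3.48 ± 0.25, from 128 in a1 and 320 in a5 to between 14.7 and 20.1. Some of these genes differed already between the libraries of time zero, with a5 above a1 in *HSP104*, *HSP78* (46.1 and 88.4) and *SIS1* (167 and 314), but both lay above all 4 libraries of 15 min. The only member that rose was *HSP12*, which is a small membrane protectant and not a folding chaperone. It stood at 223 and 239 RPKM at time zero, at 4681 and 4655 in a9 and a10, and at 4280 and 6568 in a2 and a6 (4.42 ± 0.29), and at 15 min only *TSA1* had a higher mean among the genes that rose. In the endoplasmic reticulum 2 of 10 described genes fell (median -0.60), the Hsp70 *KAR2* from 818 and 966 to between 274 and 395, and the calnexin *CNE1* from 326 and 373 to between 127 and 162.

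Carbon metabolism fell at several steps. Of 16 genes of glycolysis and gluconeogenesis 8 fell and 1 rose (median -0.97). *FBP1*, the fructose-1,6-bisphosphatase that commits carbon to gluconeogenesis, stood at 225 and 216 RPKM at time zero, at 62.9 and 53.7 in a9 and a10, and at 22.2 and 18.7 in a2 and a6. Both pairs were below time zero, and a2 and a6 were lower than a9 and a10. *PCK1*, the phosphoenolpyruvate carboxykinase of the same pathway, went from 78.6 and 85.3 to between 16.2 and 17.6 in all 4 libraries. Among glycolytic steps *PGI1*, *PFK1*, *PFK2* and *GLK1* fell by 1.11 to 1.45, whereas *FBA1*, *TPI1*, *PGK1*, *ENO1* and the abundant *GPM1* gene (C4R5P4) moved by no more than 0.42 in size. A second *GPM1* gene, C4R5A6, fell from 83.8 and 85.2 to between 22 and 23. The member that rose was *TYE7*, a transcription factor that activates glycolytic genes in yeasts, from 14.7 and 14 RPKM to 169 and 188 in a9 and a10 and 227 and 223 in a2 and a6 (3.72 ± 0.11). In respiration 3 of 4 described genes of complex II fell: *SDH2*, the iron-sulfur subunit of succinate dehydrogenase, from 814 and 748 to between 191 and 234, *SDH1* from 674 and 706 to between 250 and 372, and *SHH4* from 401 and 384 to between 161 and 205. With a9 and a10 alone *SDH1* and *SHH4* both changed by -0.95 and lost the call. None of the 7 genes of complex III was called (median -0.20), nor any of the 6 of ribosome assembly (0.38) or the 4 of DNA replication (-0.10).

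Genes of the cell surface rose in most cases, 9 of 17 described cell wall genes against 1 that fell (median 1.17). *TIP1*, a mannoprotein gene, stood at 18.8 RPKM in both libraries of time zero, at 255 and 265 in a9 and a10, and at 190 and 172 in a2 and a6 (3.46 ± 0.18). The glucan-remodelling gene *GAS1* (C4QVL5) rose from 245 and 248 to between 947 and 1179, while the *GAS1* gene C4QVL4 stood at 513 and 550 before and between 256 and 322 after (-0.85 ± 0.14, not called). Those 2 accessions carry the name of the same *S. cerevisiae* gene, and their changes had opposite signs. The chitin synthase *CHS1* rose from 23 and 22.7 to between 67.3 and 81.2. Among ion pumps *ENA2*, a sodium-exporting ATPase, rose from 52.2 and 62.5 RPKM to 297 and 300 in a9 and a10 and 317 and 327 in a2 and a6 (2.42 ± 0.08, adjusted p = 2.3e-14). *PMC1*, which pumps calcium into the vacuole, rose from 48.4 and 51.8 to between 163 and 179, and *PMA1*, the proton pump of the plasma membrane, stood at 1684 and 1834 before and between 851 and 989 after, a change of -0.90 ± 0.10 that missed the size required. Of the regulators of the pH response, *RIM101* rose from 65.5 and 62.5 to between 173 and 195. *NRG1*, a repressor that is a target of Rim101 in *S. cerevisiae*, fell from 167 and 155 to between 23.3 and 33.5 (-2.48 ± 0.16), and *DFG16*, the membrane sensor of the pathway, stayed between 41.5 and 51.7 against 45 and 43.1.

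Among the remaining large changes, C4R402, similar to the *S. pombe* gene *gti1*, rose from 2.62 and 3.42 RPKM to 129 in both a9 and a10 and 149 and 151 in a2 and a6. C4R7M8, which the files describe only as hypothetical, rose from 3.46 and 4.77 to 198 and 227 in a9 and a10 and 239 and 163 in a2 and a6 (5.34 ± 0.34). As a ratio of mean RPKM this was 50.2-fold, above that of *PHO89*. C4QW56 and C4R2I5, also hypothetical, rose by 3.59 ± 0.17 and 3.28 ± 0.38. *MSC1*, of unknown function, rose by 3.42 ± 0.34. On the other side, *RAS1*, described as a GTP-binding protein of the ras superfamily needed for bud site selection, fell from 148 and 154 to 19.5 and 17.6 in a9 and a10 and 31.8 and 34.6 in a2 and a6. *ARO10* (C4R7I0), a decarboxylase of aromatic amino acid breakdown, fell from 54.4 and 74.7 to between 4.88 and 7.3, and C4QZC5, a mucin-like protein, from 423 and 501 to between 55.8 and 101. Of 12 described genes of fatty acid oxidation and peroxisomes 6 rose, with *FOX2* of beta-oxidation going from 8.32 and 7.97 to between 40.9 and 45.3. In the methanol pathway the alcohol oxidase *AOX1* remained at low levels throughout (5.14 and 5.47, then between 6.84 and 8.47), and C4R0A4, described as an alcohol and formaldehyde dehydrogenase, fell from 885 and 900 to between 132 and 200. Of 21 transcription regulators and kinases 8 rose and 4 fell. The stress activator *MSN4* rose from 20.5 and 22.1 to between 48.8 and 59.7, and *SCH9*, a kinase of nutrient signalling, fell from 92.4 and 94.5 to between 34.2 and 55.9.

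The pairs a9, a10 and a2, a6 gave counts of similar size when each was compared with time zero, which they share: 168 genes rose in a9 and a10 (3.34%) and 161 in a2 and a6 (3.20%), and 134 (2.66%) and 129 (2.56%) fell. Of these, 131 rose and 107 fell in both. The a9 and a10 libraries were the closest to each other (SD of the log2 difference over genes 0.12), a2 and a6 differed by 0.176, and libraries of different pairs by 0.222 to 0.247, against 0.159 for a1 and a5. The median difference between pairs over all genes was -0.01. In 27 genes the pairs did not overlap and differed by at least 2-fold, and 25 of them were lower in a2 and a6 (0.497% of genes tested) and 2 higher (0.0397%).

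Of these 27 genes 8 belong to the oxidant defence list and 5 to that of old yellow enzymes and aldo-keto reductases, as the plot of one pair against the other shows. The second list also holds oxidoreductases of other kinds, among them both *GRE2* genes, C4R4K9 and *ADH6*. *TSA1*, a peroxiredoxin that reduces hydrogen peroxide, stood at 1136 and 1244 RPKM at time zero, at 10579 and 10490 in a9 and a10, and at 2076 and 2224 in a2 and a6. *AHP1* (C4QXN4), another peroxiredoxin, stood at 217 and 205, then at 2369 and 2251 in a9 and a10 and at 377 and 388 in a2 and a6. For both genes a9 and a10 lay at about one level, a2 and a6 at another, and time zero lower still. *CTA1*, a peroxisomal catalase, stood at 74.9 and 81.8 RPKM, then at 1917 and 1710 in a9 and a10 and at 391 and 526 in a2 and a6, and it rose in either pair taken alone. *HYR1*, a peroxidase that senses hydroperoxides, stood at 316 and 297, then at 1941 and 1943 in a9 and a10 and at 490 in both a2 and a6. *TRR2*, a gene named for a thioredoxin reductase, stood at 558 and 591, then at 4161 and 4076 against 939 and 961, and the thioredoxin gene C4R7E5 at 989 and 811, then at 3385 and 3332 against 1183 and 1368. In all of these a2 and a6 were above time zero, and in RPKM they were nearer to it than to a9 and a10.

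**Figure D3:**
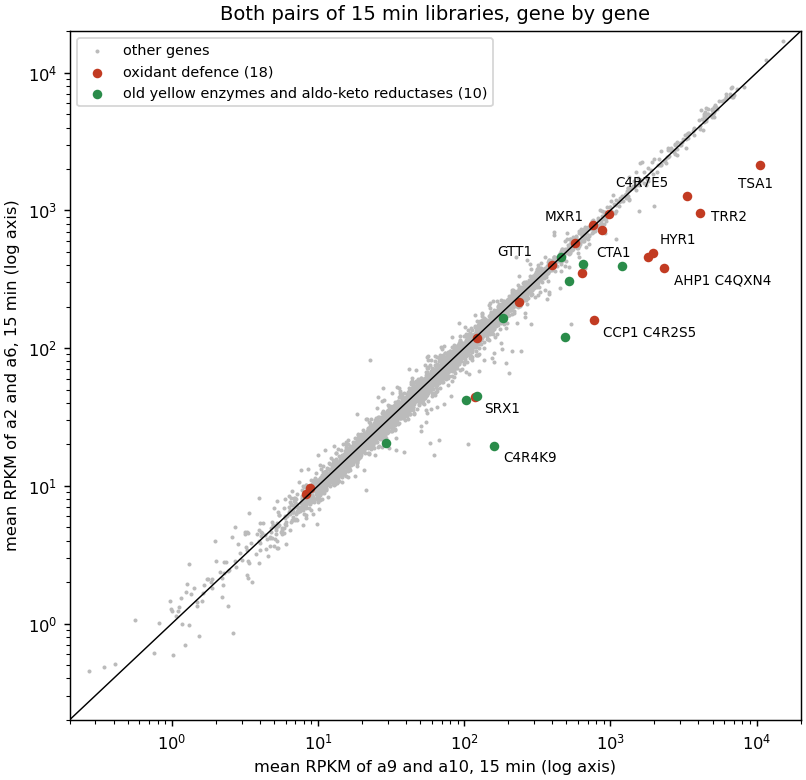
Mean RPKM of a9 and a10 (horizontal, log axis) against mean RPKM of a2 and a6 (vertical, log axis) at 15 min for each gene, with the 18 described oxidant defence genes in red, the 10 members of the list of old yellow enzymes, aldo-keto reductases and other oxidoreductases in green, all others in grey and the line of equality in black. *TSA1*, *TRR2*, *AHP1* (C4QXN4), *HYR1*, *CTA1* and *CCP1* (C4R2S5) lie well below the line, while *MXR1* and *GTT1* lie on or near it.

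In some genes a9 and a10 lay far above time zero while a2 and a6 lay at or near its level. *CCP1* (C4R2S5), the mitochondrial cytochrome c peroxidase, stood at 198 and 183 RPKM at time zero, at 835 and 709 in a9 and a10, and at 180 and 138 in a2 and a6. *SRX1*, the sulfiredoxin that repairs over-oxidised peroxiredoxins, stood at 45.3 and 47.8, then at 131 and 108 against 43.5 and 45.2. Its gene model overlaps another, so that reads of the overlap cannot be assigned. C4R4K9, described as a putative dihydrokaempferol 4-reductase, stood at 21.8 and 20.1, then at 173 and 147 against 18.9 and 20. It lies on chromosome 3 between *GRE2* genes C4R4K8 and C4R4L0, which have the same description, and all 3 models are 1065 bp long, and whether the 3 share reads was not examined. *YAK1*, a kinase that slows growth under stress in *S. cerevisiae*, stood at 19.6 and 16.7, then at 108 and 105 against 18.7 and 21.3. *YAK1* and C4R4K9 were picked after their values were seen.

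Other oxidant genes did not divide in this way. *MXR1*, which reduces oxidised methionine, stood at 119 and 136 RPKM, then at 789 and 978 in a9 and a10 and at 625 and 827 in a2 and a6 (2.63 ± 0.18). *GTT1*, a glutathione transferase whose model also overlaps another, went from 97.4 and 90.1 to 386 and 409 in a9 and a10 and 399 and 407 in a2 and a6. The glutaredoxin *GRX2* stood at 394 and 352, then at 770 and 761 against 753 and 824. Other genes named *AHP1* and *CCP1* were weakly expressed and did not divide by pair. *AHP1* (C4QYS9) stood at 7.86 and 8.57 in a9 and a10 and at 8.32 and 9.05 in a2 and a6. *CCP1* (C4QZP5) stood at 7.84 and 9.72 against 9.46 and 9.68. The cytosolic thioredoxin gene *TRX1* fell in all 4 libraries, from 515 and 463 to between 209 and 247. Taken over the 18 members of the oxidant list, 10 rose and 1 fell with all 4 libraries, 12 rose with a9 and a10 alone and 6 with a2 and a6 alone, and the median change was 1.96 and 0.73 in these pairs. In 9 of the 18 both a2 and a6 lay below both a9 and a10, and in none above, against 27.1% and 23.8% of all genes. In the list of 10 old yellow enzymes, aldo-keto reductases and other oxidoreductases, 6 rose with a9 and a10 and 1 with a2 and a6, namely *ADH6*. In 9 of them a2 and a6 were lower. The oxidant list took 0.339 and 0.34% of the reads in a1 and a5, 2.11 and 2.06% in a9 and a10, and 0.613 and 0.683% in a2 and a6.

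Tested with the spread estimated over all 26 libraries, the difference between pairs passed the adjusted p in 1 gene (0.0199%), with 475 at an unadjusted p below 0.05. That gene was *ZPS1*, a surface protein gene next to *ZRT1*, at 16.2 and 14.9 RPKM at time zero, 25.9 and 29.6 in a9 and a10, and 54.1 and 47.8 in a2 and a6, a difference of 0.85 ± 0.12 (adjusted p = 0.00772). Without a9 or without a2 no gene passed, and without a10 or without a6 there were 2. For *TSA1* and *AHP1* (C4QXN4) the differences of -2.29 and -2.59 had adjusted p = 0.0969 in this fit. With the spread taken from the 4 libraries of 15 min alone 129 genes passed, 91 of them lower in a2 and a6 and 38 higher, among them 9 of the oxidant list. With the 10 libraries of the course, a fit added after the data were seen, 99 passed (72 lower and 27 higher), again with 9 of the oxidant list (*TSA1* adjusted p = 4.93e-08, *AHP1* 1.06e-08). The number of genes that passed therefore depends on which libraries give the spread.

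The replicates of the course at pH 8.2 also stood apart for these genes. At 15 min *TSA1* was at 2234 RPKM in one of them and 9416 in the other, at 30 min at 2880 and 13016, and at 60 min at 3137 and 3495, against 1308 and 1218 at its time zero. *AHP1* (C4QXN4) was at 435 and 2555 at 15 min of that course. Of the 25 genes at least 2-fold lower in a2 and a6, 21 were higher in the second replicate at pH 8.2 than in the first, as were 35.7% of all genes. In glucose at pH 8.0 *TSA1* stood at 8563 and 7264 at 15 min, so that there both replicates were high. At 30 min of the course studied here it stood at 2214 and 2049, near a2 and a6 and below a9 and a10. What sets these cultures apart was not tested.

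**Figure D4:**
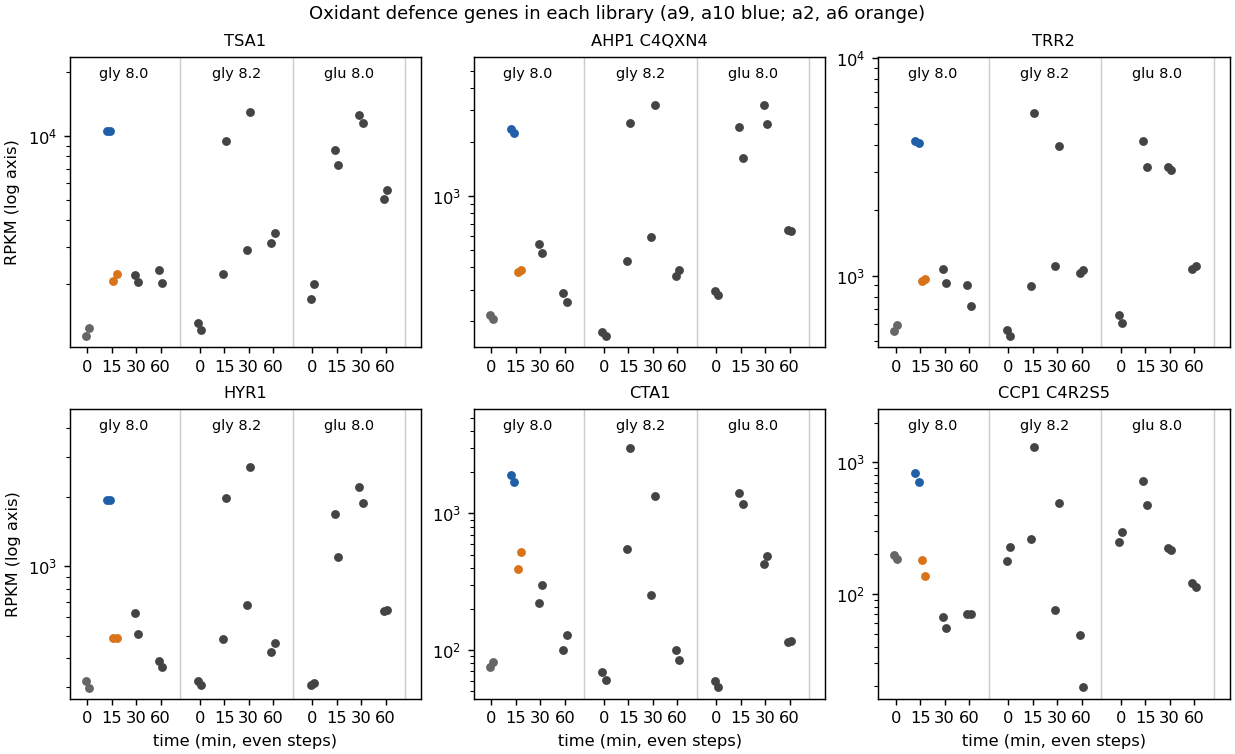
RPKM (log axis) of 6 oxidant defence genes in each of the 26 libraries by time in minutes, drawn at even steps, for glycerol at pH 8.0, glycerol at pH 8.2 and glucose at pH 8.0, with a9 and a10 in blue, a2 and a6 in orange and all others in grey. For *TSA1* the blue points lie at 10579 and 10490 and the orange ones at 2076 and 2224, and the 2 points of pH 8.2 at 15 min lie at 2234 and 9416.

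The calls of several oxidant genes over all 4 libraries rest on a9 and a10. Against time zero *TSA1* rose by 2.00 ± 0.63 (adjusted p = 0.0131) and *AHP1* (C4QXN4) by 2.15 ± 0.72 (0.0195), whereas with a2 and a6 alone they changed by 0.85 (0.209) and 0.86 (0.287) and were not called. *HYR1* went from 1.67 ± 0.57 to 0.68 (adjusted p = 0.306) and C4R7E5 from 1.21 ± 0.39 to 0.51 (0.23). *TRR2* missed the call over 4 libraries (1.78 ± 0.63, adjusted p = 0.0243, unadjusted p above 0.01) and was called with a9 and a10 alone (2.84, adjusted p = 3.8e-04). The calls of *TSA1*, *AHP1*, *HYR1* and C4R7E5 were also lost without a9, without a10, without either library of time zero, or with the spread of the compared groups alone. The call of *CTA1* held with either pair, and those of *MXR1*, *GTT1* and *GRX2* did as well.

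Between 15 and 30 min, a comparison that does not use time zero, 33 genes rose (0.656%) and 14 fell (0.278%). Per the methods, successive time points came from the same alkaline cultures, whereas the fit treated all libraries as independent. By their codes, a9 and a10 have no counterpart at 30 min. The median over all genes was 0.11 higher at 30 min, and after rescaling the libraries by median ratios the counts were 21 and 24. Of the 158 genes that had risen at 15 min 5 rose further and 1 fell back, and of the 123 that had fallen 9 rose and 5 fell further, so that 152 and 109 were not called between these times. The genes that rose again included chaperones. *SSA3* reached 1874 and 1855 RPKM and *SSA4* 119 and 148, both still below time zero. *KAR2* reached 820 and 889 and *CNE1* 335 and 339, within the range of time zero. *HAC1*, the transcription factor of the unfolded protein response, stood at 26.6 and 32.3 at time zero, at 42.8 and 40.6 in a9 and a10, at 72.8 and 68.7 in a2 and a6, and at 174 and 206 at 30 min (1.78 ± 0.27 between 15 and 30 min, adjusted p = 1.7e-04). It was not called at 15 min over the 4 libraries (0.87 ± 0.27), but was with a2 and a6 alone (1.24) and without a10 (1.01). Both *ARO10* genes rose, C4R7I0 by 2.23 ± 0.40 and C4R3I9 by 2.13 ± 0.25, and C4R4P9 and C4QW76, both hypothetical, rose from levels like those of time zero by 2.33 ± 0.25 and 1.84 ± 0.16.

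**Figure D5:**
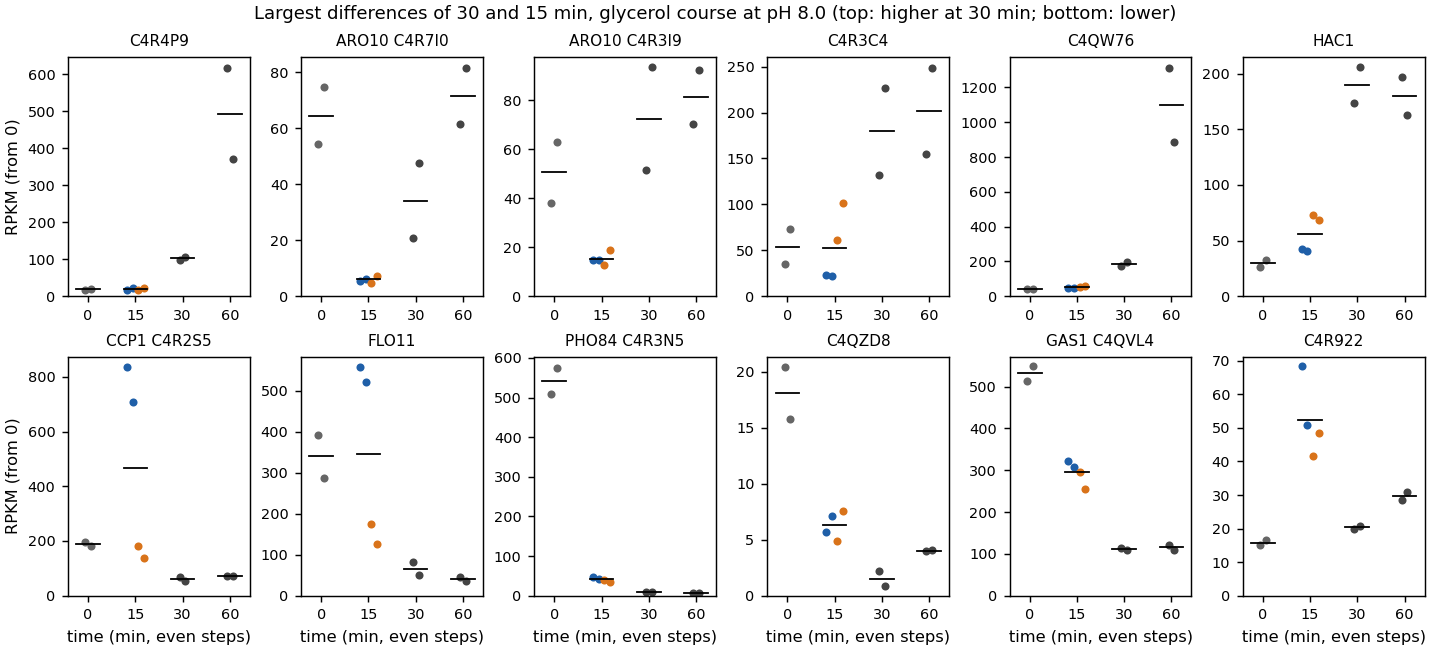
RPKM (linear axis from 0) by time in minutes, drawn at even steps, of the 6 genes with the largest rises (top) and the 6 with the largest falls (bottom) between 15 and 30 min in the glycerol course at pH 8.0, with a bar at the mean of each group, a9 and a10 in blue and a2 and a6 in orange. *HAC1* climbs from 40.6 to 72.8 at 15 min to 174 and 206 at 30 min, *PHO84* (C4R3N5) goes on falling, and in *CCP1* (C4R2S5) and *FLO11* the blue points alone lie above time zero.

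Among genes that fell between 15 and 30 min, *PHO84* (C4R3N5) dropped further to 8.97 and 8.54 RPKM (-2.10 ± 0.11). The hypothetical gene C4QZD8 (-1.57 ± 0.24), *GAS1* (C4QVL4, -1.38 ± 0.14) and C4R922, a myo-inositol transporter gene (-1.30 ± 0.17), fell as well. C4QZD8 was weakly expressed and lost its call with a pseudocount of 5 (-0.79). The complex II genes *SDH2* and *SDH1* dropped by a further 1.01 ± 0.23 and 1.17 ± 0.25. Other calls of this kind rest on the pair a9, a10. *CCP1* (C4R2S5) was at 66.7 and 55.2 at 30 min (-2.50 ± 0.71), and *FLO11*, a surface flocculin gene, went from 557 and 520 in a9 and a10 and 175 and 126 in a2 and a6 to 81.1 and 51.6 (-2.11 ± 0.62). With a2 and a6 alone as 15 min samples, added after the data were seen, *CCP1* changed by -1.36 (adjusted p = 0.134) and *FLO11* by -1.19 (0.156), and 26 genes rose and 8 fell. With a9 and a10 alone 47 rose and 37 fell. C4R3C4, a hypothetical gene that rose by 2.00 ± 0.61 over 4 libraries, changed by 1.12 (adjusted p = 0.174) against a2 and a6.

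Compared with the 15 min samples most like them, those at pH 8.2, no gene passed the adjusted p in limma's test of the difference between the changes (0%; 587 at an unadjusted p below 0.05). The count changed when the first replicate of 15 min at pH 8.2 was left out. It was 131 when replicate numbers were blocked, a fit from which a2 and a6 drop out. The count of 0 therefore does not show that the changes were alike.

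Some of the genes called lay side by side. The 281 genes held 29 runs of neighbours on the chromosomes, of 62 genes in all, and in 24 runs all members moved the same way. How many runs 281 genes placed at random would hold was not computed, so these counts do not show clustering. The longest, on chromosome 4 (1214762 to 1221311 in coordinates of the GS115 assembly ASM2700v1), held *GLK1*, C4R8G0 and *GAT1*, which fell, and *HSP12*, which rose 618 bp from *GAT1*. *ZRT1* and *ZPS1* (chromosome 3, 989382 to 992378) rose with 558 bp between them, as did *CTH1* and *MET17* (chromosome 4, 202 bp), while *HEM13* and *NRG1* (chromosome 3, 210 bp) fell. The libraries do not keep the strand, and 4 of the 281 genes have models that overlap another.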

How the data were processed

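Per the methods of the study, the authors made non-directional poly-A libraries, aligned single Illumina reads to the GS115 genome with Bowtie2 (version not given in the sources used here) and counted reads over mRNA models in SeqMonk. The values they deposited are RPKM per gene and library, in 1 table with 26 library columns. A second deposited table holds the authors' own log2 fold changes and p-values. Its values were not used, and only its accessions, gene names and descriptions were read.

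Depth was recovered from the steps of the RPKM values, of which at least 99.94% per library came out as whole reads within 0.01 read, and no count model was fitted. The test ran on log2(RPKM + 1) over genes that reached an RPKM of 1 in 2 or more libraries, with limma 3.58.1 in R 4.3.3: 12 group means over 26 libraries, moderated with a trend, and Benjamini-Hochberg adjustment. For the pairs the 15 min group was divided, which gave 13 groups. A difference between the pairs, or between pH 8.2 and pH 8.0, passed at an adjusted p below 0.05 alone. The scripts were tested on simulated data.

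Named were the 12 largest rises and 12 largest falls among called genes whose 4 libraries lay beyond both of time zero, up to 4 called members of each list plus members whose role is needed, and the 6 largest in each direction between 15 and 30 min. For the pairs the rule allowed 6 genes in each direction past the adjusted p. Genes beyond this were picked after their values were seen. Members and lists were chosen with earlier results of these data known.

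The numbers of the replicates showed no pairing of time zero with 15 min. Deviations of same-numbered libraries of these times correlated by no more than 0.047 in size. Since both times came from split cultures, a low value over all genes does not make them independent. Pairing of 15 min with 30 min was not checked. The main fit took no account of either link. Its p-values rest on the spread within the groups of all 26 libraries, including the courses at pH 8.2 and in glucose. Where replicates of those courses differed, as for *TSA1* at pH 8.2, they added to that spread. Alternatives changed the pseudocount, filter, scaling, fit, block and libraries. The fits on either pair alone, on the 10 libraries of the course and with both glycerol time zero groups joined are described with their effects after the report. The fit on the course and the fits of 30 min against 1 pair were added after the data were seen. Reads shared by near-identical gene copies were not examined. The result of 1 arginine gene is not reported here.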

Additional observations from a re-analysis of the deposited data

Results flagged for a closer look

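*ZPS1*, which encodes a putative surface protein, was the 1 gene that passed the test of the difference between the pairs of 15 min when the spread came from all 26 libraries, whereas 129 and 99 genes passed with the spread of the compared libraries and of the course. Its level was 54.1 and 47.8 RPKM in a2 and a6 against 25.9 and 29.6 in a9 and a10, a difference of 0.85 ± 0.12 on the log2 scale (limma, adjusted p = 0.00772), and both pairs lay above the 16.2 and 14.9 of time zero. It did not pass without a9 (adjusted p = 0.231) or without a2 (0.179). Among 77 named genes none had a library of 15 min set apart from the other 3. The rule required the gap to the nearest library to take up most of the range of the values. Genes that divide by pair can hardly meet it, so this count says little about them.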

How the results depend on the processing

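Under the alternatives the count of genes that rose at 15 min ranged from 139 to 171 and of those that fell from 95 to 135. Leaving out 1 library gave 154 to 164 and 117 to 133. With all 4 glycerol libraries of time zero 159 rose and 109 fell, the mitochondrial gene *MRP8* (0.86) lost its call and *TRR2* (1.82) gained one. A replicate block, which the check of time zero against 15 min does not warrant, gave 171 and 135. Replicates 3 and 4 exist only at 15 min, so a2 and a6 drop out of every estimate made with this block. Its fold changes at 15 min equalled those with a9 and a10 alone, such as 2.84 for *TRR2*. With a2 and a6 alone *SRX1* (-0.07), *CCP1* (C4R2S5, -0.27) and C4R4K9 (-0.10) changed sign. A block by code set (a1 to a4 against a5 to a8) gave the same values. It puts a9 and a10 in blocks of their own, so both drop out of the estimate, and it is not a separate check. The difference between pairs passed in 129 genes with the spread of the compared libraries, in 99 with that of the course, and in 0 to 2 with 1 library left out, and could not be fitted under a block. Between 15 and 30 min median-ratio scaling gave 21 up and 24 down. There the genes down were 9 with a pseudocount of 5, 43 with a replicate block, 8 with a2 and a6 alone and 37 with a9 and a10 alone, and leaving out 1 library gave 23 to 44 up and 10 to 20 down. The pH 8.2 comparison passed in 1 gene with the compared groups alone, 131 with a replicate block, 2 with the code set block and 0 to 42 with 1 library left out (42 without replicate 1 of 15 min at pH 8.2). The causes were not tested. With 2 libraries at time zero and no pH 5.5 culture sampled at 15 min, these counts measure the spread of few cultures.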
